A study of Equus caballus with 31 samples.

Results

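Fatty acid and cholesterol metabolism genes were compared between healthy horses and horses with spontaneous osteoarthritis (OA), a degenerative joint disease, in 2 kinds of sample: cells spun from synovial (joint) fluid, and peripheral blood mononuclear cells (PBMC). The genes were 41 named symbols, looked up in both tables of normalized read counts. Of these, 40 were in both tables, among 17538 genes in the fluid table and 17410 in the blood table, and HADHB was in neither. They were taken apart as 9 genes of fatty acid oxidation, 19 of uptake and storage, 4 of fatty acid synthesis, 5 of sterol synthesis and its regulators, and 3 of sterol efflux. RNA was sequenced from fluid cells of 5 horses with OA and 11 healthy horses, and from PBMC of 6 horses with OA and 9 healthy horses. Health or OA was judged from lameness, radiographs and the response to a joint block, and recently medicated horses were left out. All horses are labelled wild type, and the labels give no treatment, age or sex. Fluid was digested with hyaluronidase before the cells were spun down, so each library is the RNA of a mixed cell pellet. Horses are named as in the labels, OA_ or ORC_ (healthy) with a number, and 13 of them (5 with OA, 8 healthy) gave both samples.

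Cells burn fatty acids in mitochondria. CPT1A and CPT2 carry long-chain acyl groups across the mitochondrial membranes, the acyl-CoA dehydrogenases and the trifunctional enzyme (HADHA and HADHB) shorten them, and the electron transfer flavoprotein and its dehydrogenase (ETFA, ETFDH) pass the electrons to the respiratory chain. PDK4 shuts pyruvate out of the citric acid cycle and so favours fat as fuel. Fatty acids enter cells through carriers such as CD36 or after lipoprotein lipase (LPL) frees them, are activated by acyl-CoA synthetases (ACSL) and are kept as triglyceride in droplets coated by perilipins. SREBF1 and SREBF2 switch on the synthesis of fatty acids and of cholesterol, and NR1H3 (LXR alpha) switches on the exporters ABCA1 and ABCG1. Macrophages that take up lipoproteins through CD36 and MSR1 can become lipid-laden foam cells, and the joint lining holds macrophages and fibroblasts that shed into the fluid.

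Fluid libraries held 25.91 to 36.32 M reads. Blood libraries held 31.71 to 34.75 M in OA and 23.91 to 32.2 M in healthy horses, so depth moved with disease in blood. The cell mixture also moved with disease. In fluid, 11 of 12 T cell markers were lower in OA, with a summed level of 8262 to 36071 against 36556 to 134958 in healthy horses, and 4 of 12 synovial fibroblast markers were higher (1569 to 680334 against 860 to 135606). Of 9 macrophage markers tested in fluid 1 was higher (CD163, sums 42851 to 504398 against 9590 to 533392), and none of 4 neutrophil markers passed the test. Of 5 monocyte markers tested in fluid 1 was higher (VCAN, sums 3875 to 52845 against 2724 to 40891). In PBMC, 3 of 5 monocyte markers were higher in OA (27314 to 74234 against 11213 to 35288), no T cell marker changed by this test, and 10 of 12 fibroblast markers were below the minimum mean of 10. Fewer cells of a type and less RNA per cell cannot be told apart in such bulk libraries. The fluid library of OA_9570 stood apart, with the lowest fibroblast sum of the OA libraries (1569). It had the highest neutrophil (45507) and monocyte (52845) sums of all fluid libraries.

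In the fluid, 6 of 9 genes of fatty acid oxidation, CPT1A among them, were higher in OA, as were the lipase inhibitor ANGPTL4 and the fatty acid carrier CD36, while SREBF1 and LPIN1 were lower. Of the 40 genes, 11 rose and 2 fell in OA fluid at an adjusted p below 0.05, and 27 did not pass the test. Across all 13885 genes tested in fluid, 28.1% passed the test, with 14.4% higher and 13.6% lower. The median log2 change of the 40 genes was 0.515 against 0.08 over all genes tested, and 31 of the 40 were above 0. By group, 6 of 9 oxidation genes rose and none fell, 4 of 19 uptake and storage genes rose and 1 fell, and 1 of 4 fatty acid synthesis genes rose. Of the 5 genes of sterol synthesis and its regulators none rose and 1 fell, the regulator SREBF1. None of the 3 sterol efflux genes passed the test. In 4 of the 40 genes (10%) every OA library was above every healthy one, which held for 1.57% of all genes tested, and in 1 gene (2.5%) every OA library was below, against 1.99% of all genes. PDK4 and FABP4 passed the filter on level only through the OA libraries. Of the other 38 genes 10 rose and 2 fell, of the other 8 oxidation genes 5 rose, and in 3 of the 38 (7.89%) every OA library was above every healthy one. Changes are given as log2(value + 1), OA minus healthy, with the SE.

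**Figure D1:**
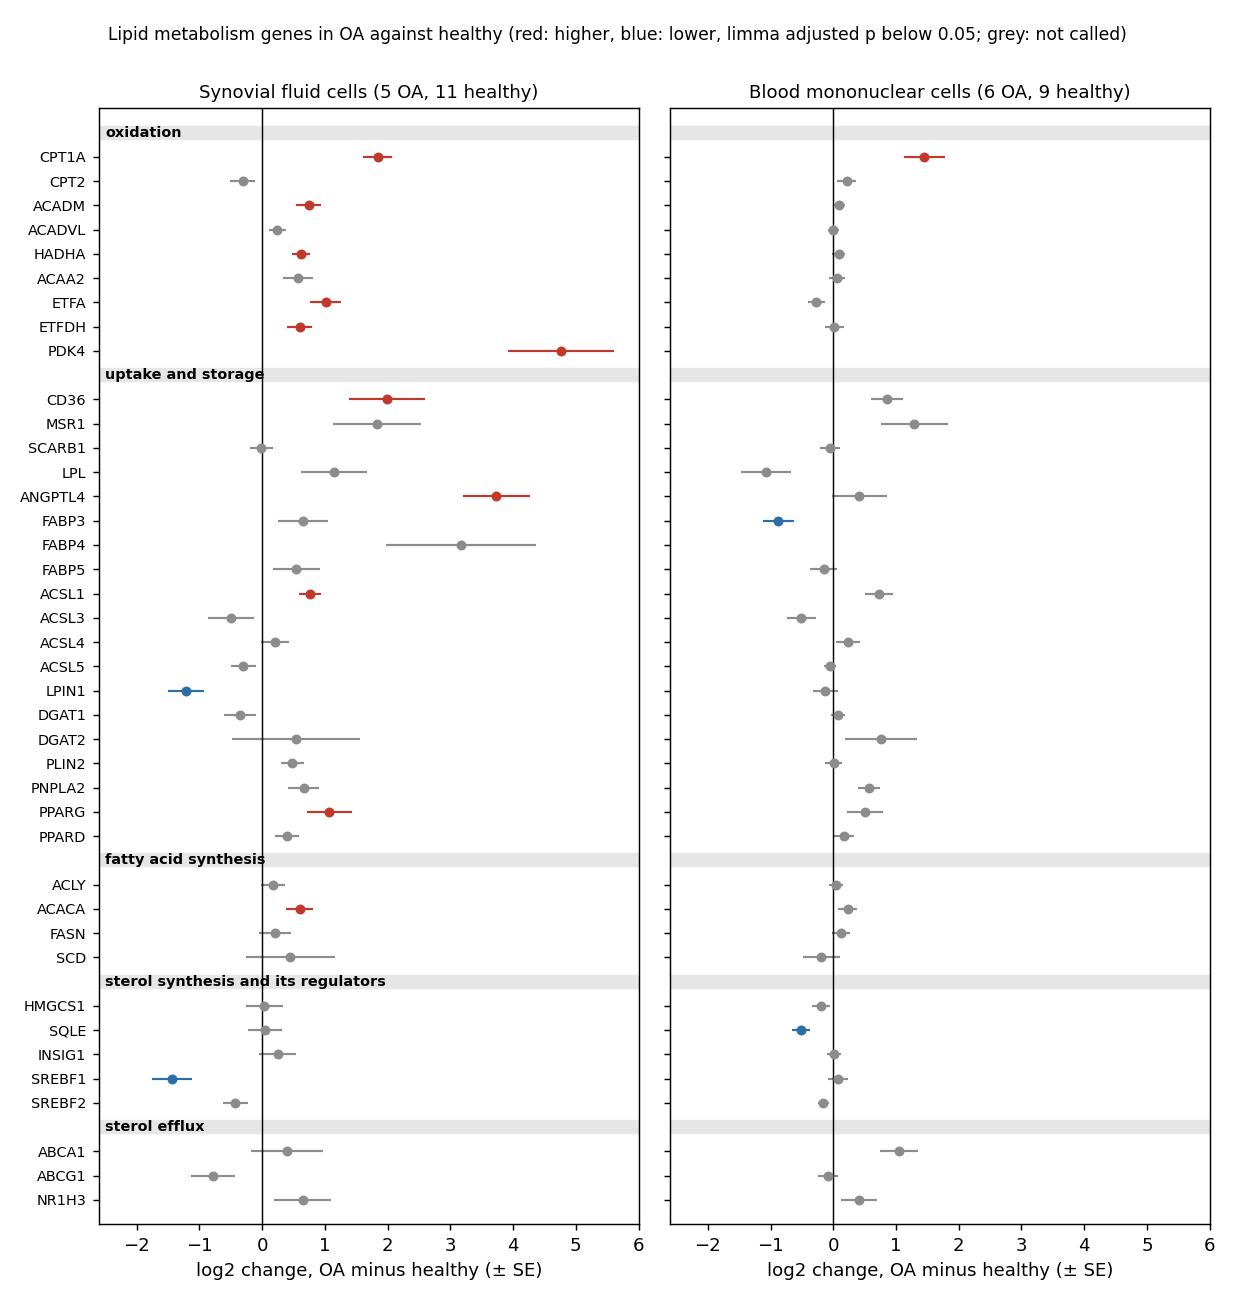
Log2 change of each gene in OA against healthy (horizontal axis, point with SE bar) in fluid (left, 5 OA and 11 healthy libraries) and blood (right, 6 OA and 9 healthy libraries), with the genes grouped by role. Red points rose and blue points fell (adjusted p below 0.05): 11 and 2 of 40 in fluid, 1 and 2 of 38 in blood.

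CPT1A, the rate-limiting step of long-chain fatty acid entry into mitochondria (chromosome 12, 31716084 to 31778128 on EquCab3.0), read 1722 in OA_1038, 2409.8 in OA_2615, 5654 in OA_3850, 4531 in OA_9350 and 2610.4 in OA_9570. The healthy libraries ran from 619 through a median of 818 to 1229.8, so every OA library was above every healthy one. CPT1A was 3.59-fold higher in OA fluid (log2 1.84 ± 0.23 SE, adjusted p = 0.0005). HADHA, the alpha subunit of the trifunctional enzyme (chromosome 15, 70875913 to 70922485), read 4328, 3582, 3609.9, 3169 and 3626 in the same order of OA horses. Its healthy libraries ran from 1602 through 2485 to 2825, again with no overlap, although the rise was small (log2 0.62 ± 0.15 SE, adjusted p = 0.00651). PDK4, the kinase that inhibits pyruvate dehydrogenase (chromosome 4, 39015781 to 39027160), was a low gene that passed the filter on its level only through the OA libraries. It read 99.8, 31.4, 72.0, 53.1 and 14.7 in OA, from 232 reads in all. In healthy fluid 8 of 11 libraries were at 0 and the highest read 10.9, from 23 reads in all. Its log2 change was 4.77 ± 0.85 (SE, adjusted p = 0.00143). With a pseudocount of 8 in place of 1 it was 2.54, so the size of the change rests on the pseudocount. The groups did not overlap, but only narrowly: OA_9570 held 15 reads and ORC_188, the highest healthy library, 13.

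In the other oxidation genes past the test the groups overlapped. ACADM, the medium-chain acyl-CoA dehydrogenase (chromosome 5, 83705455 to 83737104), read 2919, 2993, 2055, 1704 and 1735 in OA_1038, OA_2615, OA_3850, OA_9350 and OA_9570. Healthy libraries ran from 773 through 1432 to 1781, and 2 of them were above the lowest OA library. ACADM rose by a log2 of 0.75 ± 0.20 (SE, adjusted p = 0.0119). ETFA, a subunit of the electron transfer flavoprotein (chromosome 1, 117816379 to 117939344), read 1131, 1268, 819.6, 1103 and 634 in OA and 270.1 to 922 with a median of 513 in healthy fluid. The highest healthy value was that of ORC_202, and ETFA doubled in OA (2.02-fold, log2 1.01 ± 0.25 SE, adjusted p = 0.00765). ETFDH, which takes the electrons from that protein, read 674, 509, 609, 552 and 392.3 in OA against 260.2 to 521 (median 351) in healthy fluid. Its rise was 0.60 ± 0.20 on the log2 scale (SE, adjusted p = 0.0313). The other 3 oxidation genes did not pass the test: ACAA2, the last thiolase step, at 0.57 (adjusted p = 0.078), the very long-chain dehydrogenase ACADVL at 0.25 (0.201), and CPT2, the partner of CPT1A on the inner membrane, at -0.31 (0.246).

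Among uptake and storage genes, ANGPTL4, a secreted inhibitor of lipoprotein lipase and a target of the PPAR receptors, had the largest change past the test (chromosome 7, 6062344 to 6067384). It read 508 in OA_1038, 2461 in OA_2615, 1765 in OA_3850, 1513 in OA_9350 and 888 in OA_9570. Healthy libraries ran from 18.5 through 97.2 to 287, with no overlap, and ANGPTL4 was 13.3-fold higher in OA (log2 3.73 ± 0.53 SE, adjusted p = 0.000528). CD36, a carrier of fatty acids and oxidized lipoproteins (chromosome 4, 488367 to 719342), read 658, 7640.4, 5379, 4523 and 1373 in the same order. Healthy libraries ran from 349 through 629.8 to 3455, so OA_1038 and OA_9570 lay inside the healthy range and the other 3 OA libraries above it. CD36 rose by a log2 of 1.99 ± 0.61 (SE, adjusted p = 0.0236). ACSL1, which activates long-chain fatty acids, read 3012, 2720.2, 3415, 3598 and 3560.5 in OA against 1201 to 2725 (median 2091) in healthy fluid, with 1 library of each group crossing. It rose by 0.76 ± 0.18 (SE, adjusted p = 0.00622).

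PPARG, the nuclear receptor that drives fat storage and CD36, read 563, 1184, 972, 1552 and 1351 in OA and 185 to 1482 with a median of 501 in healthy fluid. Of 11 healthy libraries 1 (ORC_188) reached the OA median, and PPARG rose by 1.07 ± 0.35 (SE, adjusted p = 0.0313). LPIN1, a phosphatidate phosphatase of triglyceride synthesis (chromosome 15, 83149758 to 83275079), was the gene of the set that lay below every healthy library. It read 559, 149.5, 613, 484 and 539 in OA against 622 to 1361 (median 998) in healthy fluid. LPIN1 fell by 1.21 on the log2 scale (SE 0.29, adjusted p = 0.00651), and OA_2615 was far below the other OA horses. LPL itself read 580.3, 3193, 2273, 1210.2 and 666 in OA and 116.9 to 1658 (median 653) in healthy fluid, a change of 1.15 ± 0.53 that did not pass the test (adjusted p = 0.109).

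The 3 OA libraries with the most CD36, LPL and ANGPTL4 (OA_2615, OA_3850 and OA_9350) also had the most of the scavenger receptor MSR1, at 18007, 15483 and 9299, and the highest macrophage marker sums of the OA group (504398, 177710 and 397846). In healthy fluid ORC_205 had the highest macrophage sum (533392) and the highest CD36 (3455), MSR1 (9871) and LPL. Its ANGPTL4, at 55.2, was below the healthy median of 97.2. The part of macrophage number in these values was not tested. MSR1 was at 1.84 (adjusted p = 0.059) and FABP4, a fatty acid binding protein of adipocytes and macrophages, at 3.17 (adjusted p = 0.0543). FABP4 read 39.4, 96.7, 119.7, 127 and 0 in OA and at most 29.5 in healthy fluid, so it too passed the filter only through OA libraries. The droplet coat protein PLIN2 (0.485, adjusted p = 0.0527) and the triglyceride lipase PNPLA2 (0.66, 0.0505) lay just outside the threshold. FABP3, another fatty acid binding protein, read 489, 423, 356, 533 and 860.0 in OA and 106 to 1000.1 (median 384) in healthy fluid (0.65 ± 0.39 SE, adjusted p = 0.219). The remaining uptake and storage genes were SCARB1, FABP5, ACSL3, ACSL4, ACSL5, DGAT1, DGAT2 and PPARD, from -0.49 for ACSL3 to 0.55 for FABP5, none past the test. DGAT2, which makes the last bond of triglyceride, ranged widely. It read 7024 in ORC_196, 6823 in ORC_202 and 6799 in OA_9570, and 86.7 to 3517 in the others. These 3 fluid libraries had the highest neutrophil marker sums (42897, 23660.0 and 45507). They also had the highest monocyte marker sums (40891, 31528 and 52845), and CSF3R is in both lists.

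**Figure D2:**
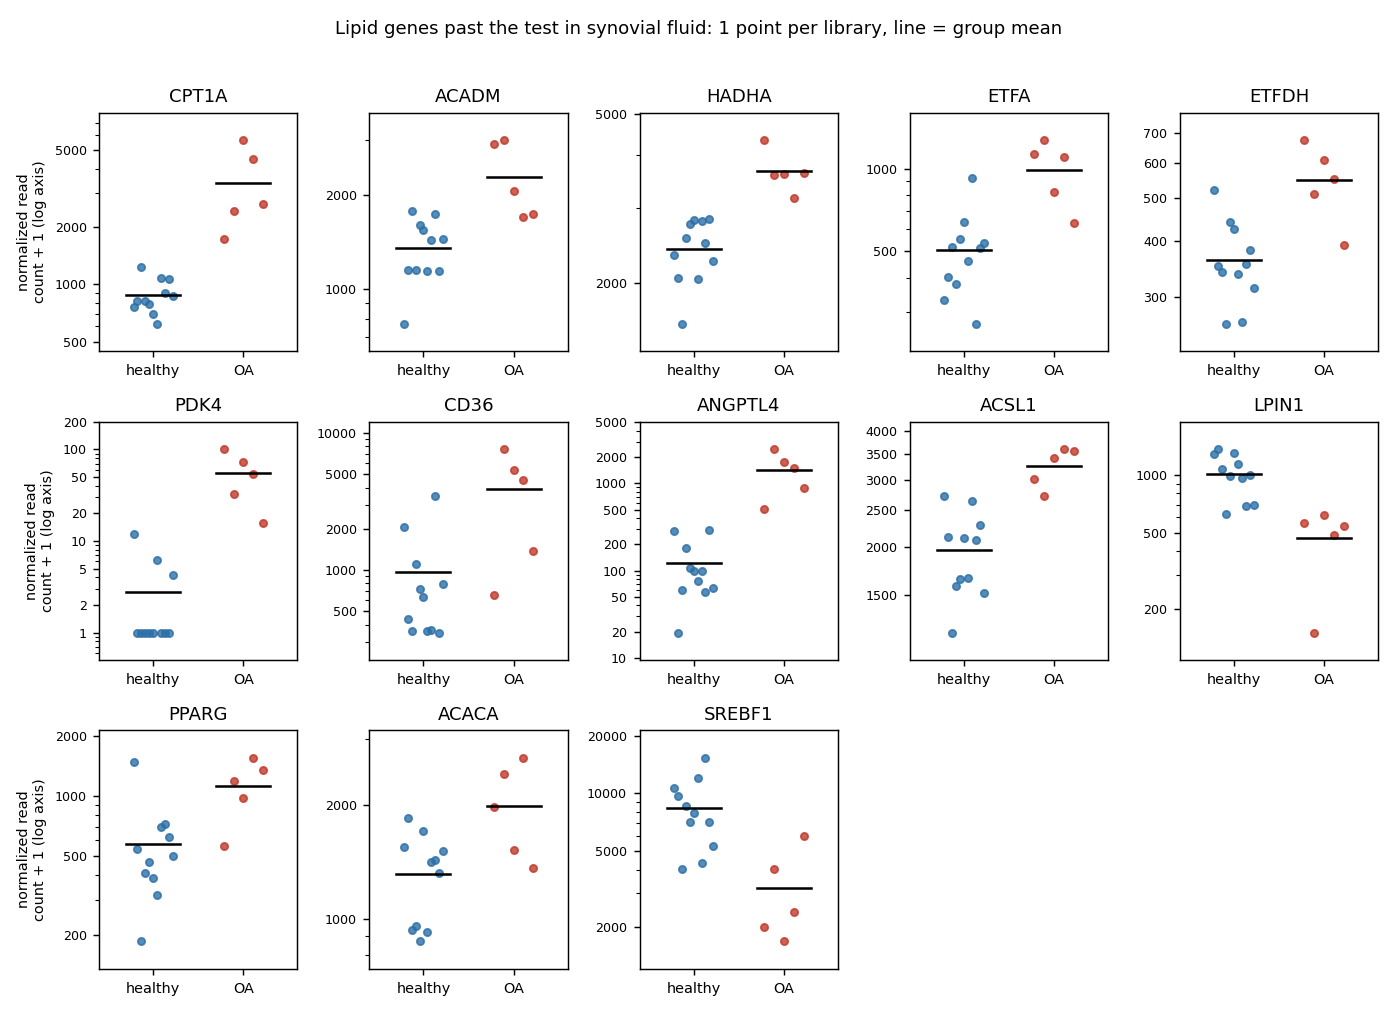
Normalized read counts plus 1 in each fluid library (1 point per library, log vertical axis, own scale per gene) of the 13 genes past the test, for 11 healthy (blue) and 5 OA (red) libraries, with the group mean as a line. CPT1A, HADHA, PDK4 and ANGPTL4 show every OA point above every healthy point and LPIN1 every OA point below.

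Of the 4 fatty acid synthesis genes 1 passed the test in fluid. ACACA, the acetyl-CoA carboxylase that makes malonyl-CoA, read 1980, 2422, 1521, 2671 and 1362 in OA and 871 to 1855 (median 1413) in healthy fluid. It rose by 0.60 ± 0.21 (SE, adjusted p = 0.0451) with overlapping groups, the call closest to the threshold. FASN, which builds palmitate, read 6967 to 17716 in OA (median 8012) and 5175 to 14074 in healthy fluid (median 6951; 0.21, adjusted p = 0.548). ACLY, the source of cytosolic acetyl-CoA, was at 0.18 (adjusted p = 0.497) and the desaturase SCD at 0.45 (0.658).

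Of the sterol genes and their regulators, SREBF1 carried the change. This transcription factor of lipid synthesis (chromosome 11, 60416727 to 60556581) read 2009 in OA_1038, 4022 in OA_2615, 1685 in OA_3850, 2391 in OA_9350 and 5956 in OA_9570. Healthy libraries ran from 4042 through 7896 to 15347, so 4 of 5 OA libraries were below all healthy ones and OA_9570 was above 3 of them (ORC_196, ORC_202 and ORC_209). SREBF1 fell by 1.43 on the log2 scale (SE 0.32, adjusted p = 0.00482), to 0.37 times the healthy level. SREBF2, its relative for cholesterol synthesis, read 7028 to 15533 in OA (median 9036) against 10165 to 20202 (median 12961), and its -0.42 did not pass the test (adjusted p = 0.116). The enzymes HMGCS1 and SQLE and the sterol sensor partner INSIG1 were at 0.03, 0.04 and 0.25, with adjusted p of 0.94, 0.918 and 0.541. The efflux genes differed in sign: ABCG1 read 1034 to 1985 in OA against 1205 to 6161 (-0.79, adjusted p = 0.0958), NR1H3 1030.0 to 2645 against 247 to 3392 (0.65, adjusted p = 0.297), and ABCA1 367 to 5807 against 751 to 5882 (0.40, adjusted p = 0.625).

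Of the 13 calls in fluid, 9 held whichever of the 16 libraries was left out, and those of ETFDH, CD36, PPARG and ACACA were lost in some. CD36 was lost without OA_2615, OA_3850 or OA_9350 (adjusted p = 0.08, 0.0687 and 0.0618), ETFDH without any of these or OA_1038 (at most 0.083), PPARG without any of these 3, OA_9570 or ORC_201 (at most 0.0883), and ACACA in 8 fits (at most 0.133, without OA_9350). Without OA_2615 all 4 were lost and 7 genes rose instead of 11. Scaling to equal totals moved the median of all genes tested from 0.08 to -0.12 and the share of calls that were higher from 51.4% to 32.0%. All 13 genes kept their direction under that scaling, with 8 higher and 4 lower, and the last count gained ABCG1 and SREBF2. Without OA_9570 and ORC_202 together 12 rose and 4 fell.

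The mean of the T cell markers was also entered as a covariate. T cell sums of the groups did not overlap, and in this limma fit none of the 40 genes and none of all 13885 genes passed the test, with 1670 genes at an unadjusted p below 0.05. The direction held in 11 of the 13 genes: CPT1A was at 1.64 (unadjusted p = 0.000949), PDK4 at 4.89, ANGPTL4 at 2.59, SREBF1 at -1.75 and LPIN1 at -0.53. CD36 went from 1.99 to -0.02 (adjusted p = 0.997) and PPARG from 1.07 to -0.20 (adjusted p = 0.922). Of the 27 genes not past the test without the covariate 9 changed sign, among them ABCA1 (from 0.40 to -2.17, adjusted p = 0.296) and LPL (from 1.15 to -0.78, adjusted p = 0.734).

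Other genes of the same pathways, outside the 41, were counted from lists of each pathway. Of 106 tested in fluid 21 rose and 7 fell, or 26.4%, near the 28.1% of all genes. Among 20 other oxidation genes 4 rose and 1 fell (25%, also near the share of all genes), with a median of 0.50. HSD17B4, of peroxisomal beta-oxidation, read 6312, 3992, 3989, 3828 and 3608 in the OA libraries and 963 to 2767 in healthy ones, with no overlap (1.33 ± 0.23 SE, adjusted p = 0.00123). ECI2, an enoyl-CoA isomerase for unsaturated chains, rose by 1.54 (adjusted p = 0.00529). CPT1B, the muscle form of CPT1A, moved the other way: it read 20.1 to 125 in OA and 118 to 403 in healthy fluid and fell by 1.89 (SE 0.41, adjusted p = 0.00404).

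Of 29 other uptake, storage and lipolysis genes 8 rose and none fell (27.6%, near the share of all genes; median 0.175), and those of smallest p were the scavenger receptor OLR1 (1.74, adjusted p = 0.0106), the acyltransferase GPAT3 (1.59, 0.0107) and the droplet protein PLIN3, with a smaller change (0.60, 0.0158). Among 17 other fatty acid synthesis genes 2 rose and 1 fell. ME1, the malic enzyme that supplies NADPH, read 3554, 2414, 2712, 1478 and 1151 in OA and 47.5 to 455 in healthy fluid, with no overlap (3.45 ± 0.46 SE, adjusted p = 0.0005). ELOVL1, an elongase, rose by 0.55 (adjusted p = 0.0273), and MID1IP1, an activator of acetyl-CoA carboxylase, fell by 0.99 (adjusted p = 0.0101). Of 24 other sterol synthesis genes 3 rose and 1 fell, with a median of 0.06: among those that rose were PMVK (0.84, adjusted p = 0.0324) and NSDHL (0.61, 0.0253). Of 16 other efflux and handling genes 4 rose and 4 fell. The mitochondrial sterol-binding protein TSPO rose by 1.65 (adjusted p = 0.00615), while the transporter ABCA2 (-1.33, 0.00726) and the late endosomal sterol carrier STARD3 (-0.88, 0.00969) fell. Of the named genes, PMVK, NSDHL and ELOVL1 lost their calls in 4, 4 and 3 fits that left out 1 OA library. Scaling to equal totals ended the calls of PMVK, NSDHL and ELOVL1 and that of PLIN3 (adjusted p = 0.116 for PLIN3). The calls of PMVK and ELOVL1 were also lost with edgeR, and that of ELOVL1 with another scaling (TMM factors). NSDHL and ELOVL1 lost theirs without OA_9570 and ORC_202 together. With the T cell covariate none of the named genes kept its call. Directions held in all alternatives, but the smallest change was 0.073 for GPAT3, 0.171 for OLR1, -0.138 for ABCA2, -0.163 for STARD3 and -0.454 for CPT1B. It was larger for ME1 (2.06), ECI2 (1.321), TSPO (1.266), HSD17B4 (1.041) and MID1IP1 (-0.776). For PMVK, PLIN3, NSDHL and ELOVL1 it was 0.634, 0.396, 0.382 and 0.343.

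**Figure D3:**
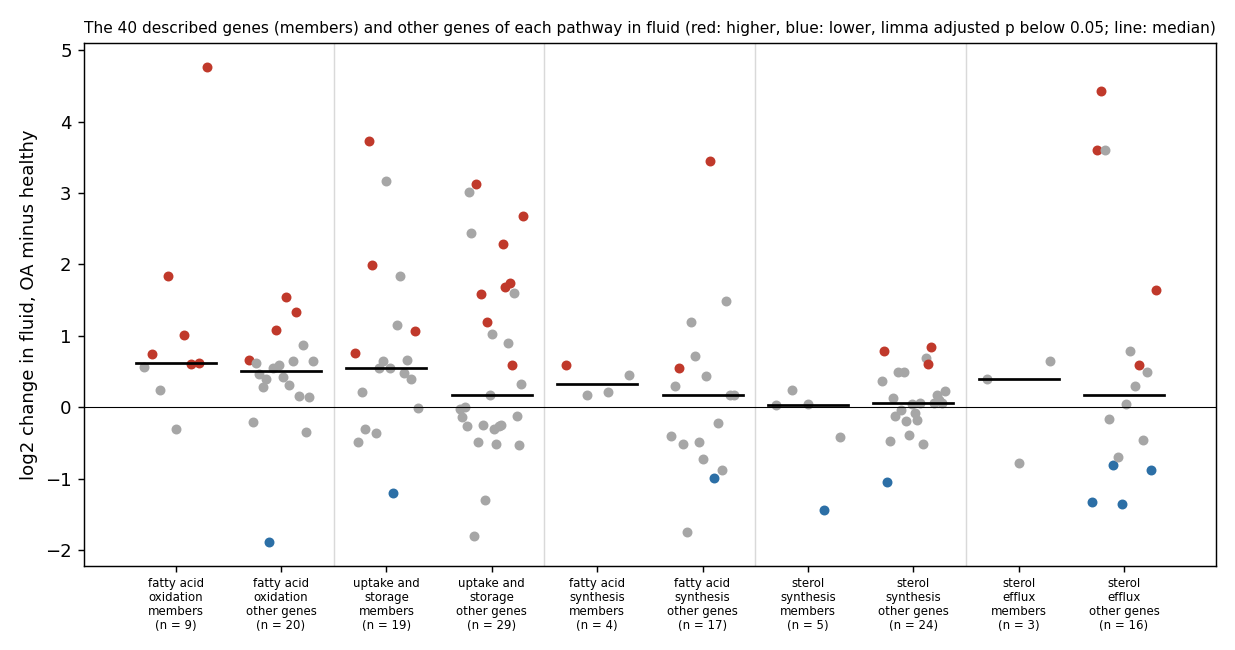
Log2 change in fluid, OA minus healthy (vertical axis), of the 40 genes described (members) and of the other genes of each pathway (1 point per gene, line = median of the column). Red points rose and blue points fell; the oxidation columns have medians of 0.62 and 0.50, and those of sterol synthesis 0.03 and 0.06.

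In PBMC the same comparison gave few calls. Of the 38 genes tested in blood 1 rose (CPT1A) and 2 fell (FABP3 and SQLE), and 35 did not pass the test. Of all 13072 genes tested there, 5.4% passed the test, with 3.2% higher and 2.2% lower. The median of the 38 genes was 0.07 against 0.02 over all genes tested. PDK4 and FABP4 were below the minimum mean, PDK4 with 76 reads over 6 OA libraries and 15 over 9 healthy ones, and FABP4 with 2 and 14. In none of the 38 genes did the groups separate fully, which held for 0.612% of all genes with OA above and 0.436% with OA below.

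CPT1A read 1155 in the lowest OA library, 4163 at the median and 6471 in the highest, against 809.6, 1106 and 2519 in healthy blood. The lowest OA library was that of OA_4110, the OA horse with no fluid library, and the other 5 were above every healthy library. CPT1A was 2.73-fold higher (log2 1.45 ± 0.33 SE, adjusted p = 0.0255), and the call was lost without OA_3850, OA_9350 or OA_9570 (adjusted p = 0.0816, 0.0762 and 0.0761). FABP3 (chromosome 2, 25222998 to 25231459) read 386 to 1026 in OA with a median of 702 and 737 to 2229.9 with a median of 1080.4 in healthy blood. It fell by 0.875 (SE 0.24, adjusted p = 0.0468). SQLE, the squalene epoxidase of cholesterol synthesis (chromosome 9, 69210546 to 69234121), read 658 to 1013 in OA (median 758) and 856 to 1463 in healthy blood (median 1179.6). It fell by 0.51 (SE 0.14, adjusted p = 0.042). Leaving out single libraries ended the call of FABP3 in 12 of 15 fits (all but those without OA_4110, ORC_202 or ORC_205) and that of SQLE in 10 (all but those without OA_2615, ORC_197, ORC_202, ORC_205 or ORC_209), with adjusted p of at most 0.119 and 0.116.

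Just outside the threshold in blood lay 4 genes, all above 0. The cholesterol exporter ABCA1 (chromosome 25, 11075323 to 11220429) read 1035 to 3077 in OA with a median of 1984 and 446 to 2514 with a median of 915 in healthy blood (1.05 ± 0.30 SE, adjusted p = 0.0503). CD36 read 1199 to 2898 (median 2418) against 871 to 2470.1 (median 954; 0.85, adjusted p = 0.0568), ACSL1 937 to 2068 (median 1389) against 495 to 1312 (median 838; 0.73, adjusted p = 0.0634), and PNPLA2 was at 0.57 (adjusted p = 0.0691). DESeq2 called these 4 with MSR1 and DGAT2, so that 7 genes rose by that tool, against 1 by edgeR. LPL read 25.4 to 79.6 (median 53.7) in OA and 41.0 to 257 (median 135) in healthy blood (-1.07 ± 0.39 SE, adjusted p = 0.109), and DESeq2 called it lower (adjusted p = 0.0202), as did limma with library weights (0.0493) and without ORC_202 (0.0433). No oxidation gene but CPT1A passed the test in blood: the other 7 lay between -0.27 (ETFA) and 0.22 (CPT2). Fatty acid synthesis genes lay between -0.19 (SCD) and 0.23 (ACACA), and the sterol regulators SREBF1 and SREBF2 were at 0.08 and -0.16, none past the test.

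**Figure D4:**
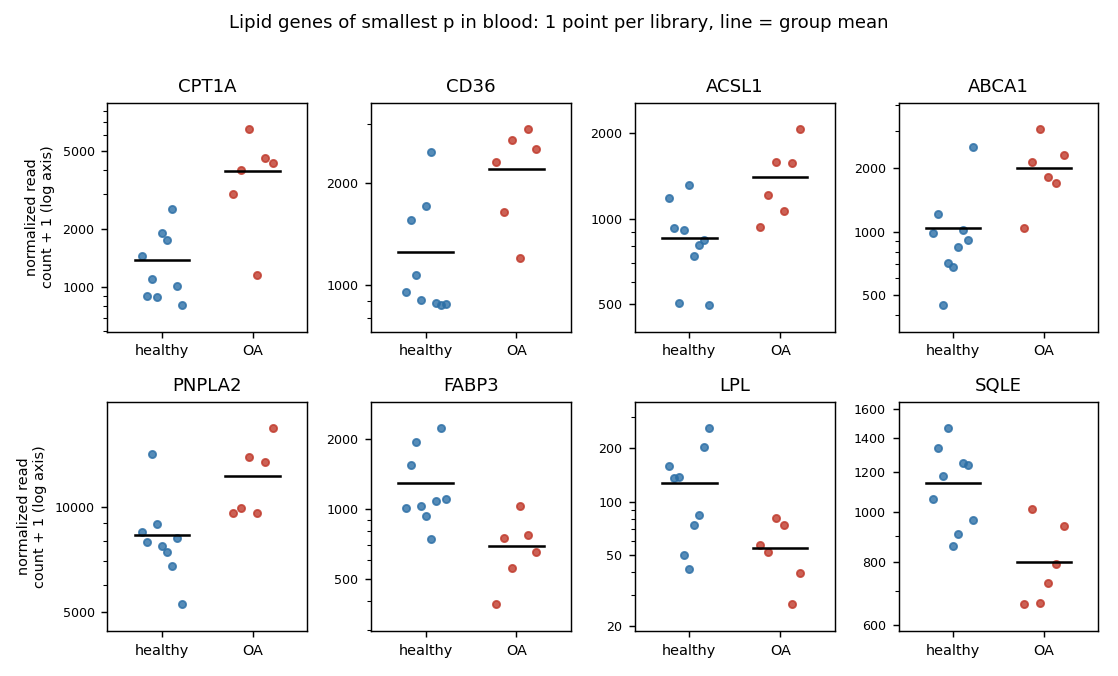
Normalized read counts plus 1 in each blood library (1 point per library, log vertical axis, own scale per gene) of 8 genes of small p in PBMC, for 9 healthy (blue) and 6 OA (red) libraries, with the group mean as a line. In each gene the groups overlap; CPT1A has 5 of 6 OA points above every healthy point.

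With the mean of the monocyte markers as a covariate, none of the 38 genes passed the limma test in blood, nor did any of all genes tested (1221 at an unadjusted p below 0.05). CPT1A was then at 0.61 (adjusted p = 0.58), FABP3 at -0.46 (0.612), SQLE at -0.43 (0.532), CD36 at 0.20 (0.8) and ACSL1 at 0.04 (0.957), while ABCA1 was at 1.42 (unadjusted p = 0.00487, adjusted p = 0.517).

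Of 101 other pathway genes tested in blood 6 rose and 1 fell (6.93%, against 5.4% of all genes). The endocytic receptor LRP1 read 3693 to 19349 (median 9035) in OA and 1678 to 5270.0 (median 3848) in healthy blood, with 5 of 6 OA libraries above every healthy one (1.31 ± 0.32 SE, adjusted p = 0.0331). The acyltransferase GPAM (0.75, adjusted p = 0.0431), the pyruvate dehydrogenase kinase PDK1 (0.72, 0.0433), the nuclear receptor RXRA (0.70, 0.0355) and the cholesterol esterifying enzyme SOAT1 (0.64, 0.0486) also rose. FDPS, of the mevalonate pathway, fell by 0.64 (adjusted p = 0.0357). Each of the calls named here was lost without OA_3850, OA_9350 or OA_9570, for LRP1 with an adjusted p of 0.0975, 0.0937 and 0.0979.

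The OA effect in fluid was then set against that in blood, gene by gene, in 1 fit over all 31 libraries. Of the 38 genes, 8 had effects that differed (21.1%, near the 22.3% of all 12733 genes tested): 6 were higher in fluid (10.3% of all genes) and 2 lower (11.9%). In oxidation, ETFA had a log2 change of 1.01 in fluid and -0.27 in blood (difference 1.28 ± 0.28 SE, adjusted p = 0.0023), ACADM of 0.75 and 0.09 (0.65 ± 0.21 SE, adjusted p = 0.0253), and HADHA of 0.62 and 0.08 (0.53 ± 0.19 SE, adjusted p = 0.0414). A second fit used the fluid-minus-blood value of each of the 13 horses (the replicate block) and called 24.2% of all genes. It gave HADHA a difference of 0.45 with an adjusted p of 0.0716, and it called CPT2 instead (-0.57, adjusted p = 0.0225). CPT1A, higher in both, did not differ by this test: 1.84 in fluid and 1.45 in blood, a difference of 0.39 ± 0.51 (SE, adjusted p = 0.616).

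In uptake and storage, ANGPTL4 was at 3.73 in fluid and 0.41 in blood (difference 3.32 ± 0.76 SE, adjusted p = 0.00359). The pair LPL (chromosome 2, 49312731 to 49334046) and FABP3 had opposite signs in the 2 sources. LPL was at 1.15 in fluid and -1.07 in blood (2.22 ± 0.71 SE, adjusted p = 0.0257), and FABP3 at 0.65 and -0.875 (1.52 ± 0.48 SE, adjusted p = 0.0239); of these 4 effects only that of FABP3 in blood passed its own test. LPIN1 was at -1.21 and -0.13 (-1.08 ± 0.37 SE, adjusted p = 0.0336), and its call was lost without OA_2615 (adjusted p = 0.158). SREBF1 was at -1.43 in fluid and 0.08 in blood (-1.51 ± 0.36 SE, adjusted p = 0.00426). The genes of sterol efflux did not differ by this test, with differences of -0.65 (ABCA1), -0.70 (ABCG1) and 0.24 (NR1H3), nor did those of fatty acid synthesis, from 0.09 (FASN) to 0.64 (SCD). Leaving out the libraries of 1 OA horse left 4 to 9 calls, with 4 without OA_2615 and 5 without OA_1038. ACADM was lost without either of these (adjusted p = 0.0629 and 0.0904), HADHA without either or OA_9350 (at most 0.133), LPL without OA_2615, OA_3850 or OA_9350 (at most 0.0876) and FABP3 without OA_1038 or OA_9570 (0.0575 and 0.0592). Scaling to equal totals also ended the calls of ACADM (0.128) and HADHA (0.202).

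**Figure D5:**
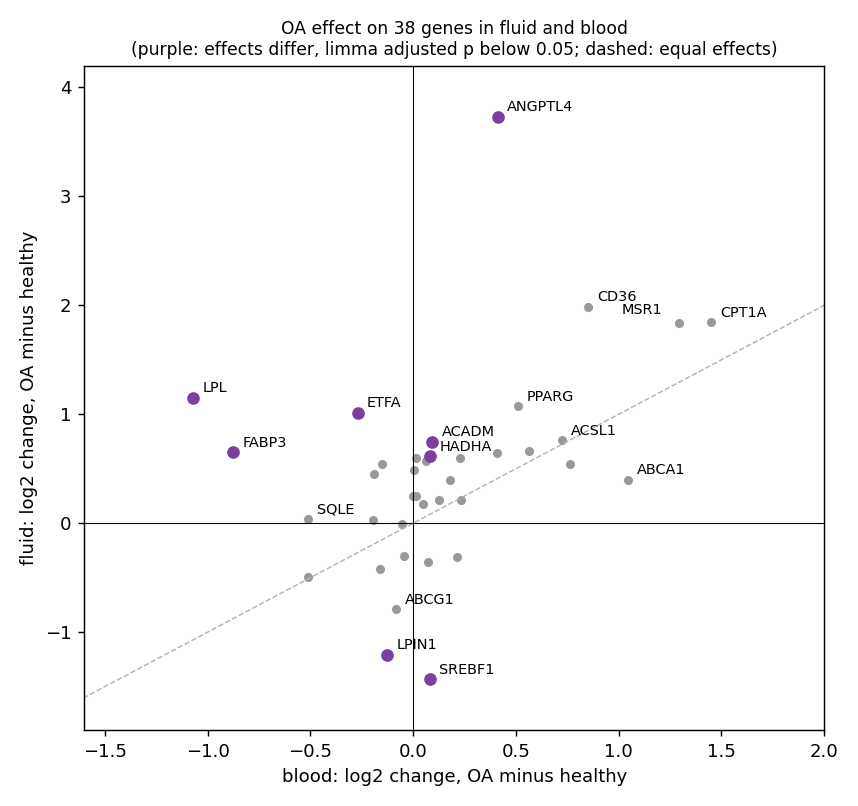
Log2 change in OA against healthy in blood (horizontal axis) and in fluid (vertical axis) of the 38 genes tested in both, 1 point per gene, with a dashed line where the effects are equal. The 8 purple genes have effects that differ (adjusted p below 0.05); CPT1A, MSR1 and CD36 are above 0 in both.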

How the data were processed

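RNA-seq values of 31 libraries were used as deposited. They are a signal: the authors' reads per gene after median-ratio normalization, done apart for fluid and for blood, per the names of the deposited files. Partek, cutadapt, STAR 2.7.3, HTSeq, DESeq and the build EquCab3.0 are named in the submitters' processing notes, without settings. Strand handling is not given in the sources used here, so reads of overlapping antisense genes cannot be told apart. Coordinates are those of the blood table. Groups follow the labels. Each horse gave 1 library per tissue.

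Genes whose mean in a tissue reached 10 were fitted there as log2(value + 1) by limma 3.58.1 (R 4.3.3, trend and robust variance), two-sided, with Benjamini-Hochberg adjustment over all genes tested and a threshold of 0.05. Adjusted p-values are from limma unless another tool is named. This scale understates the change of low genes. The difference between tissues was fitted with 4 group means and weights per tissue, and again on within-horse differences. The labels give both samples of a horse 1 number. Deviations from the group mean correlated between a horse's samples in 13 of 13 horses (0.123 to 0.391). Correlations between samples of different horses were not set beside these, so the values do not test the pairing. No level was compared between tissues or between genes.

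Whole reads were recovered from the steps of the low values: 99.87% to 99.98% of values per library lay within 0.1 of a whole read. On these reads edgeR 4.0.16 (quasi-likelihood) called 1947 genes higher and 2039 lower in fluid and 505 and 302 in blood, and DESeq2 1.42.0 was another alternative. Other alternatives were a pseudocount of 8, no filter, other scalings, library weights, marker means as covariates and left-out libraries. The steps were tested on simulated data. There the main fits called 19% of 2-fold changes in fluid, 61% in blood and 17.2% in the difference between tissues. For 4-fold changes the shares were 74%, 91.8% and 67%. The fit with the replicate block called 7.1% of 2-fold changes. Changes were set in a small share of genes, whereas 28.1% of all genes passed the test in the real fluid data. Fluid and blood were simulated apart, without a link between the samples of a horse. These shares therefore need not hold for the real data. A 2-fold change that did not pass the test in fluid or in the difference can still have been missed. No 2 libraries were near copies (chi-square per gene of at least 113 in fluid and 37.6 in blood).

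The members and lists were chosen with earlier results of these data known. Named singly are genes past the threshold, the 2 members of smallest p of each group in each tissue and, from each list of other pathway genes, the 3 of smallest p past the threshold, of which 2 genes are counted but not reported here singly; the other genes named were chosen after their values were seen. Marker lists were T cells, monocytes, resident macrophages, synovial fibroblasts, adipocytes, endothelial cells, neutrophils, B cells and platelets. Of lists not given in the report, adipocyte markers had 0 of 3 tested past the threshold in fluid and 0 of 2 in blood, platelet markers 0 of 3 and 0 of 4, B cell markers 1 lower of 5 in each tissue, endothelial markers 1 higher of 7 and of 6, macrophage markers 1 higher of 7 in blood and neutrophil markers 0 of 5 in blood.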

Additional observations from a re-analysis of the deposited data

Results flagged for a closer look

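In 8 of 116 groups of libraries the highest or lowest value stood far from the rest, by the ratio of its gap to the group's whole range. Chance alone gives about 1 group in 20. Healthy fluid, with 11 libraries, was larger than the groups this rule covers and was not screened. In OA fluid these were FABP4 in OA_9570, at 0.0 where the other OA horses read 39.4 to 127, and LPIN1 in OA_2615, at 149.52 against 484 to 613. In OA blood they were ACSL4 in OA_1038, at 1905.31 against 2611 to 2953, and NR1H3 in OA_9570, at 2042.16 against 573 to 918. In healthy blood they were ACSL4 in ORC_197 (969.7 against 2136 to 3021), DGAT2 in ORC_202 (5006.01 against 163 to 683), and PPARG and ABCG1 in ORC_209 (84.36 against 199 to 384, and 1707.54 against 701 to 1032). ORC_202 also had a high DGAT2 value (6823), neutrophil marker sum (23660.0) and monocyte marker sum (31528) in fluid. The part of its cell mixture was not tested.

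In 8 of 38 genes (21.1%, near the 22.3% of all genes tested) the OA effect differed between fluid and blood by the test of the difference itself. The differences, fluid minus blood on the log2 scale, were 0.653 for ACADM, 3.32 for ANGPTL4, 1.283 for ETFA, 1.525 for FABP3, 0.534 for HADHA, -1.081 for LPIN1, 2.221 for LPL and -1.514 for SREBF1. Those of ANGPTL4, ETFA and SREBF1 passed the threshold in every alternative run for them.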

How the results depend on the processing

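Counts of genes past the threshold moved more than directions did. In fluid, 17 genes rose and 5 fell with library weights, 4 fell with scaling to equal totals and 4 without OA_9570 and ORC_202, and 0 rose or fell with the T cell covariate (limma; 4 and 4 at an unadjusted p below 0.05); 0 oxidation genes rose in that fit, with 3 at an unadjusted p below 0.05. Single libraries left out gave 7 to 14 higher, 2 to 4 lower (4 without OA_9570) and 5 to 7 oxidation genes higher. With that covariate CD36 (-0.02) and PPARG (-0.199) changed sign, the 2 sign changes of genes past the threshold; of the 27 others 9 changed sign in fluid, and in blood, with the monocyte covariate, 13 of 35. For the genes chosen to be named, 1506 of 1765 values over all alternatives kept their direction and side of the threshold. These include genes that stayed not called. In 190 values a call was lost with its direction kept, and in 2 it was lost with a change of sign. In 27 values a call was gained. DESeq2 gave 16 higher and 3 lower in fluid, edgeR 10 and 2.

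In blood the number higher was 2 with a pseudocount of 8, 2 with equal totals, 7 with DESeq2, 6 with weights, 2 without OA_4110 and ORC_207 and 0 with the monocyte covariate (1 at an unadjusted p below 0.05). The number lower was 0 without a filter (4 at an unadjusted p below 0.05, limma), 1 with equal totals, 1 without OA_4110 and ORC_207 and 0 with the covariate (1 at an unadjusted p below 0.05). Single libraries left out gave 0 to 5 higher (0 without OA_3850, OA_9350 or OA_9570, where at most 17 of all genes rose) and 0 to 3 lower.

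Between tissues 8 genes were called in the main fit and 8 with the replicate block, which lost HADHA, gained CPT2 and changed no other call among the 38 genes; 7 were called with equal totals, where the share of all calls that were higher fell from 46.4% to 26.1%, and 4 to 9 when both libraries of an OA horse were left out. PDK4 and FABP4 rest on few reads in fluid and were not tested in blood, and the number of horses limits the precision of all other values.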
